A study of Mus musculus with 8 samples.

Results

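The sine oculis-related homeobox family encodes homeodomain transcription factors, and 4 of its genes (*Six2*, *Six3*, *Six4* and *Six5*) were described here together with *Six3os1*, the RNA transcribed antisense to *Six3*. The members were taken by symbol from the gene rows of the deposited single-cell matrix, 5 of 32285 genes. The cells used came from the kidneys of 4 male mouse embryos in 1 pool, labelled E17.5 in the sample records and placed at a later embryonic day in the methods of the study. Embryos 1 and 2 were *Trim28* Δ/Δ (ko in the tag names), with both floxed copies of *Trim28*, a chromatin co-repressor, to be recombined in nephron progenitor cells (NPCs) by a *Six2*-driven EGFP-cre transgene, Tg(*Six2*-EGFP/cre)1Amc. Embryos 3 and 4 were *Trim28* f/f (wt in the tag names), with the floxed copies intact. The Cre driver therefore belongs to the family described here, and recombination is limited to cells that expressed the transgene and their descendants. Nothing in the sources used here says that the *Trim28* f/f embryos carried the transgene, so the deletion and the transgene cannot be told apart in any comparison below. The remaining 6 samples of the series, bulk RNA of newborn kidneys, were not analysed here.

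Proteins of this family bind DNA through a homeodomain and a neighbouring domain that bears the name of the family, and they act with partners of the Eya, Dach and Tle families. In the developing kidney, SIX2 keeps cells of the cap mesenchyme in the progenitor state, and its loss from these cells accompanies their passage to the renal vesicle, the first epithelial stage of the nephron. SIX3 is best known from the forebrain and the eye. SIX4 is made in many embryonic tissues, among them the early kidney mesenchyme, and SIX5 lies next to the myotonic dystrophy kinase gene and is broadly expressed. Mice with the Six2-EGFP/cre transgene used here have been reported elsewhere to misexpress *Six3* in nephron progenitors, which is given as background and not as a result of these data.

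*Six2*, *Six3* and *Six3os1* lie in 1 cluster on chromosome 17, whereas *Six4* lies on chromosome 12 and *Six5* on chromosome 7. In the GENCODE annotation of GRCm38, *Six2* occupies chr17:85684277-85688274 on the minus strand and *Six3* chr17:85613608-85629302 on the plus strand, both protein coding. *Six3os1*, a processed transcript, occupies chr17:85600651-85618398 on the minus strand. The annotated starts of *Six2* and *Six3* are 74.7 kb apart, and *Six3* and *Six3os1* overlap by 4.79 kb on opposite strands. The sources used here do not state how strand was handled in counting, so reads of that overlap cannot be assigned with certainty to either gene. The overlap lies at the annotated 5′ end of both genes, whereas the counts are of 3′ tags. How many counts came from it was not tested. *Six4* occupies chr12:73099609-73113456 on the minus strand and *Six5* chr7:19094594-19098549 on the plus strand.

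The promoters of the 3 clustered members are shown because *Six3* and *Six3os1* were both higher in the *Trim28* Δ/Δ embryos while their neighbour *Six2* was not. Each is the 300 bases around the RefSeq start in GRCm38.p6, read 5′ to 3′ on the strand of the gene, with matches to CCAAT (on either strand) in capitals. The windows are chr17:85688205-85688504 (minus strand) for *Six2*, chr17:85620584-85620883 (plus strand) for *Six3* and chr17:85618347-85618646 (minus strand) for *Six3os1*. The last of these lies inside the outermost GENCODE limits of *Six3*, as does the *Six3* window itself.
Six2: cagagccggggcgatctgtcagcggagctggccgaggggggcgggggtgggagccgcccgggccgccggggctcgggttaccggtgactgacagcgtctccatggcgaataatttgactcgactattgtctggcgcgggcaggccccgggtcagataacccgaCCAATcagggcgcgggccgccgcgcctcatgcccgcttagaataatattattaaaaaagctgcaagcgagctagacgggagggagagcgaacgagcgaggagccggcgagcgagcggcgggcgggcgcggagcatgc
Six3: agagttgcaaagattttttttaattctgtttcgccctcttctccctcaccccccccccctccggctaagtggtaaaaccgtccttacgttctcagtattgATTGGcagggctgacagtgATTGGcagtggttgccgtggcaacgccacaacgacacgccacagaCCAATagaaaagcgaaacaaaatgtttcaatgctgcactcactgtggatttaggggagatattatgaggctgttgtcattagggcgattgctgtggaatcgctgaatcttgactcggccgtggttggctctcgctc
Six3os1: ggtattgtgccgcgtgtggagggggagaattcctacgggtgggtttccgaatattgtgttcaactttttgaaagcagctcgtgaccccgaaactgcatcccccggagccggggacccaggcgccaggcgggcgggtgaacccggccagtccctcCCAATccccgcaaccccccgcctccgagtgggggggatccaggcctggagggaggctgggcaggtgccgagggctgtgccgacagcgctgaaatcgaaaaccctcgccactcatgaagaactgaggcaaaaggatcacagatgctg
The *Six3* window held 3 CCAAT matches and the *Six2* and *Six3os1* windows held 1 each, while 37.4% of all 32851 RefSeq promoter windows of this length held at least 1. The share of windows with 3 matches was not counted, so that nothing is read from the higher number in the *Six3* window. None of the 3 windows held TATAAA, which 13.6% of all windows held, or TCANGTTTC, a site that proteins of the family bind, which 1.08% held, both searched on either strand. TCANGTTTC was found once in 1 of the 2 RefSeq windows of *Six4* and not in that of *Six5*. The CpG pairs numbered 37 in the *Six2* window, 14 in the *Six3* window and 20 in the *Six3os1* window, against a median of 7.

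After filtering, 6867 cells carried the tag of 1 embryo, 1423 and 1548 cells from the *Trim28* Δ/Δ embryos and 2134 and 1762 from the *Trim28* f/f embryos, with 27263677 to 41203146 gene UMIs (counted molecules) per embryo and medians of 16474 to 17098.5 UMIs per cell. The clustering used no member of the family, and classes were named from markers that included none. Naming also used the 10 leading genes of a cluster, which were ranked over all genes. *Six2* held 1 of these places in NPC-like and in renal vesicle-like cells, and member levels entered the naming in that way only. NPC-like cells were led by *Cited1*, *Cped1* and *Spock2* and numbered 14 and 28 in embryos 1 and 2, and 66 and 196 in embryos 3 and 4. Renal vesicle-like cells were led by *Tmem100* and *Wt1*, with *Six2*, *Wnt4* and *Eya1* among the 10 leading genes, and numbered 34, 37, 109 and 148. Cluster 6, led by *Pcp4*, *Lsp1* and *Tagln* with *Wt1* among its leading genes, numbered 50, 64, 129 and 103 cells. It scored 1.05 on renal vesicle markers, with 5 of 7 raised, and 0.72 on podocyte markers. It was left unnamed because no renal vesicle marker stood among its 10 leading genes. In all, 19 classes had at least 10 cells in each embryo.

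Levels are given as CPM, the UMIs of a gene per 1000000 gene UMIs of the class in 1 embryo. *Trim28*, the deleted gene, had 25.9 and 46.4 CPM in NPC-like cells of the *Trim28* Δ/Δ embryos and 114.8 and 135.8 CPM in those of the *Trim28* f/f embryos. Its counts come from the 3′ end, outside the floxed segment, so that they check the labels and not the deletion itself. *Trim28* was lower in 9 of the 18 classes in which it was tested, all of them nephron epithelia, their progenitors or unnamed clusters, with the lowest fitted log2 change, -2.44, in cluster 6. In NPC-like cells the log2 change was -1.80 (adjusted p = 0.0284), which did not pass without embryo 1 (-1.58, adjusted p = 0.422), without embryo 2 (-2.43, adjusted p = 0.374) or with the members kept among the variable genes (-1.75, adjusted p = 0.0601). In the endothelial-like, stroma-like, ureteric bud-like, immune-like, mural-like and intercalated-like classes none of the tests of *Trim28* passed the threshold, with log2 changes between -0.28 and 0.11. In the endothelial-like, stroma-like, immune-like and intercalated-like classes edgeR called no gene at all (before adjustment 597, 352, 393 and 438 genes lay below 0.05, and DESeq2 called 4, 0, 0 and 7), so that the lack of a call there says little beyond the size of the change.

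*Six2*, the progenitor regulator, stood highest in the nephrogenic classes of *Trim28* f/f embryos. It reached 194.4 and 168.4 CPM in NPC-like cells, 94.3 and 113.3 CPM in renal vesicle-like cells and 6.8 and 14.9 CPM in cluster 6. These 3 classes did not overlap in their ranges over embryos, whereas the range of cluster 6 overlapped that of the immune-like class (1.1 and 15.2 CPM), the next in order. In ureteric bud-like cells *Six2* had 1.3 and 0 CPM and in stroma-like cells 1.6 and 0.94 CPM. Free RNA, measured in barcodes of 10 to 100 UMIs, held *Six2* at 18.5 CPM, above its level in every class but NPC-like and renal vesicle-like cells. That value, like those given below for other members, is the make-up of the free RNA and not the amount it adds to a cell. The low values elsewhere are therefore read neither as expression nor as its lack.

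**Figure D1:**
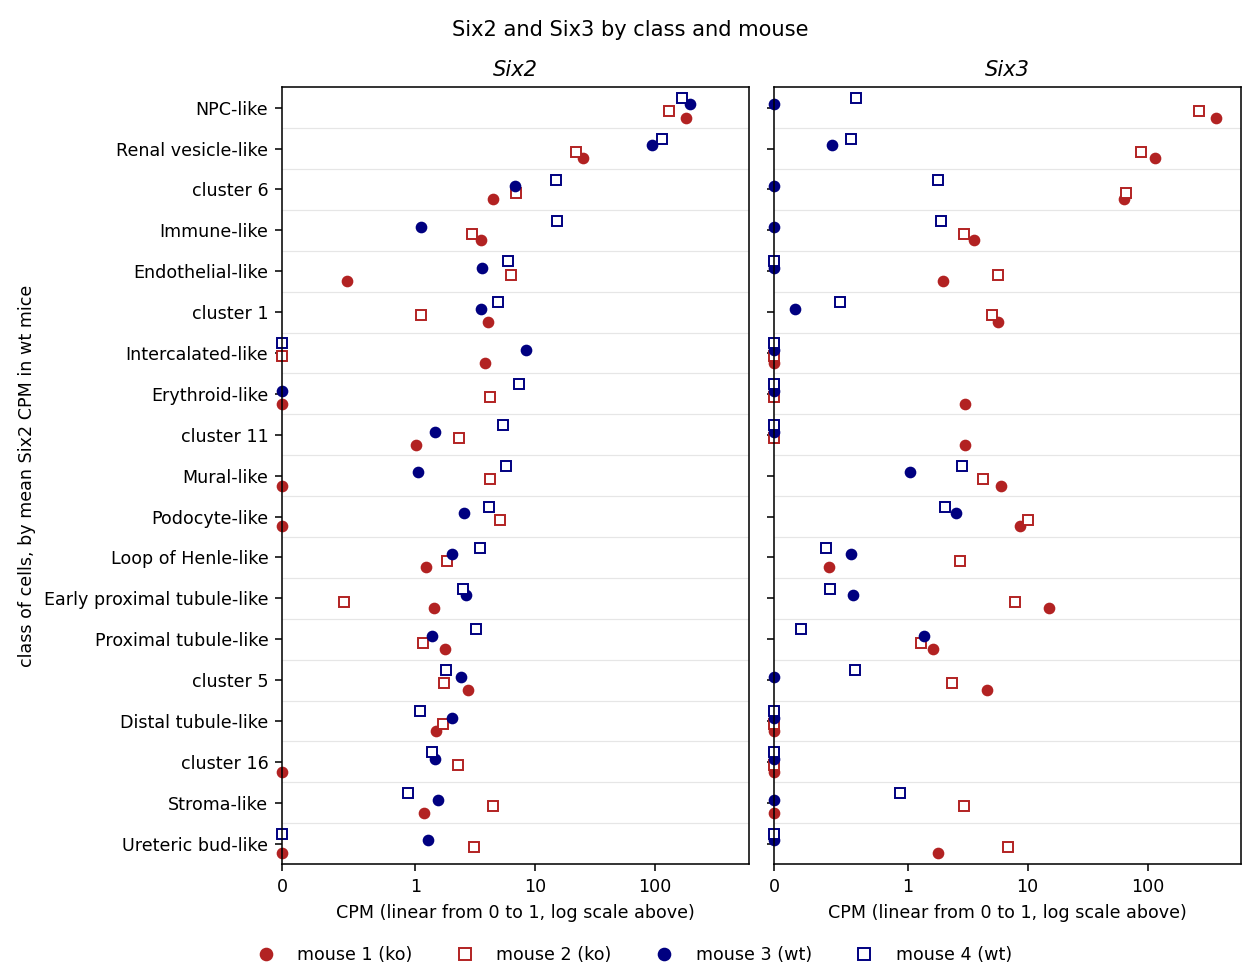
Levels of *Six2* (left) and *Six3* (right) in CPM for each of 19 classes of cells (rows, ordered by mean *Six2* in *Trim28* f/f embryos), with 1 point per embryo (mouse in the key; red, *Trim28* Δ/Δ; blue, *Trim28* f/f); the axis is linear from 0 to 1 and logarithmic above. *Six2* stands high in NPC-like and renal vesicle-like cells of all embryos, and *Six3* stands high in the red points of those classes and of cluster 6.

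In NPC-like cells the level of *Six2* was close in both genotypes. *Trim28* Δ/Δ embryos had 181.4 and 130.0 CPM (35 and 56 UMIs) beside 194.4 and 168.4 CPM (198 and 548 UMIs) in *Trim28* f/f embryos, and the groups overlapped. The fitted log2 change was -0.37 (SE 0.24, adjusted p = 0.894 by edgeR), which did not pass the threshold of 0.05 and does not show equal levels. Of the NPC-like cells, 64.3% and 85.7% held a *Six2* UMI in *Trim28* Δ/Δ embryos (95% exact intervals 35.1 to 87.2 and 67.3 to 96.0) and 89.4% and 86.2% in *Trim28* f/f embryos (79.4 to 95.6 and 80.6 to 90.7). These intervals overlap, and they cover counting error only. With assignment by tag share the difference between the mean shares of the genotypes took the other direction. *Cited1*, a marker used to name NPC-like cells, was lower in these cells of both *Trim28* Δ/Δ embryos, as given below. The mix of cells within the class may thus differ between genotypes, which was not tested.

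*Six2* fell in the renal vesicle-like cells of *Trim28* Δ/Δ embryos. It had 25.2 and 21.7 CPM there (21 and 18 UMIs) beside 94.3 and 113.3 CPM (220 and 392 UMIs) in *Trim28* f/f embryos, and the groups did not overlap. The fitted log2 change was -2.26 (SE 0.24, adjusted p = 0.00791), in a class where 0.805% of 9942 genes tested passed as lower. The change was -2.39 without embryo 1 and -2.16 without embryo 2, and the call did not hold in either fit. Each of these fits has 1 *Trim28* Δ/Δ embryo, with the spread taken from the *Trim28* f/f embryos alone. Cells with a *Six2* UMI made up 29.4% and 29.7% against 52.3% and 62.8%, at median depths of 23269, 22996, 20792 and 22864 UMIs per cell. With every cell thinned to 6800 UMIs they made up 11.8% and 16.2% against 33.0% and 42.6%. With 2 embryos per genotype the exact permutation test, two-sided, cannot give a p below 0.333, which it gave for both.

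The change of *Six2* differed between these 2 classes as named. The renal vesicle-like cluster scored 1.31 on its own markers and 1.04 on those of NPCs, its second type. A different mix of cells within either class cannot be told apart from a different level per cell. A model with the embryo as a block gave a log2 change in NPC-like cells that lay 1.93 above that in renal vesicle-like cells (SE 0.32, edgeR adjusted p = 8.147e-04 over 9259 genes). Without embryo 1 this difference was 1.77 and without embryo 2 it was 2.03. Its call did not hold in either fit, each with 1 *Trim28* Δ/Δ embryo and the spread taken from the *Trim28* f/f embryos alone. Summed over all assigned cells, *Six2* had 3.7 and 4.6 CPM in *Trim28* Δ/Δ and 12.5 and 30.5 CPM in *Trim28* f/f embryos, with a log2 change of -2.41 (SE 0.44, adjusted p = 0.109), which passed without embryo 3 (-2.92) and without embryo 4 (-1.62). In such a sum, fewer cells of a type and less RNA per cell cannot be told apart, and the NPC-like cells were fewer in both *Trim28* Δ/Δ embryos.

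*Six3* rose in the nephrogenic classes of the *Trim28* Δ/Δ embryos and stood near zero in the *Trim28* f/f embryos. In NPC-like cells it had 373.3 and 269.4 CPM (72 and 116 UMIs) in *Trim28* Δ/Δ embryos, against 0 and 0.61 CPM (0 and 2 UMIs) in *Trim28* f/f embryos. On pooled UMIs that was a ratio of 644, with a 95% counting interval of 176 to 5357. The fitted log2 change was 9.02 (SE 0.47, edgeR adjusted p = 1.096e-07), in a class where 0.185% of 7549 genes tested passed as higher. This SE is narrower than the counting error of the ratio. *Six3* entered the test through its counts in the *Trim28* Δ/Δ embryos, so that the p-value is given as a description only. Since 1 embryo was at 0, the fitted value depends on the prior count of the fit, and the ratio is the better guide to the size under this assignment of cells. With assignment by tag share, *Six3* in NPC-like cells had 461 and 336 CPM against 2.4 and 6.4 CPM (54 and 94 against 2 and 14 UMIs), a log2 change of 6.11, so that the size depends on the assignment by more than the counting interval covers.

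*Six3* also rose in renal vesicle-like cells. It had 113.9 and 88.2 CPM (95 and 73 UMIs) in *Trim28* Δ/Δ embryos against 0.43 and 0.58 CPM (1 and 2 UMIs) in *Trim28* f/f embryos. The pooled ratio was 195 (65.7 to 956) and the log2 change 7.32 (SE 0.40, adjusted p = 2.852e-04, with 0.402% of genes passing as higher), which was 5.41 with assignment by tag share. Cluster 6 had 63.1 and 65.7 CPM (43 and 66 UMIs) against 0 and 1.8 CPM (0 and 3 UMIs), a log2 change of 6.10 (SE 0.58, adjusted p = 0.00466, 0.121% of genes higher). In these 3 classes the groups stood far apart, and the levels in *Trim28* Δ/Δ embryos fell in the order NPC-like, renal vesicle-like and cluster 6 with no overlap between neighbours. The test of the change in NPC-like against renal vesicle-like cells gave a log2 difference of 1.94 (SE 1.30, adjusted p = 0.917), so that the 2 fitted changes were not shown to differ.

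Outside these classes *Six3* was low. Early proximal tubule-like cells had 15.1 and 7.8 CPM against 0.59 and 0.42 CPM, a log2 change of 4.27 (SE 0.66, adjusted p = 0.0399, 0.265% of genes higher), which did not pass without embryo 1 (3.79, adjusted p = 0.228). Cluster 1, led by the cell cycle genes *Ube2c* and *Cenpf*, had 5.7 and 5.1 CPM against 0.15 and 0.49 CPM, with a log2 change of 4.08 (SE 0.64, adjusted p = 0.0629). It passed in 3 of 8 settings, with no filter, without the marked doublets and without embryo 4 (4.85, adjusted p = 0.00568), and leaving out an embryo gave 3.36 to 4.85 with adjusted p up to 0.487. In that class 0.17% of genes passed as higher. The levels in early proximal tubule-like cells overlapped those in podocyte-like cells (8.6 and 10.1 CPM from 3 and 2 UMIs). It was at 0 in every embryo in distal tubule-like, intercalated-like and cluster 16 cells, where 3 UMIs, the limit that a count of 0 allows, would be 1.53 to 3.28 CPM in the distal tubule-like cells of the embryos, 2.18 to 9.32 CPM in cluster 16 and 7.02 to 12.6 CPM in intercalated-like cells. The limits in cluster 16 and in intercalated-like cells overlap the *Six3* level of early proximal tubule-like cells, so that the 0 in these 2 classes says little. *Six3* passed the filter on low counts in 5 of the 19 classes, and there it did so through the *Trim28* Δ/Δ embryos. The *Trim28* f/f embryos held 2 or 3 UMIs per class. The number of classes that passed as higher and the p-values of *Six3* in these classes are therefore given as a description only.

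Ureteric bud-like and endothelial-like cells do not come from the *Six2* lineage, and they served as a check on stray *Six3* molecules. Ureteric bud-like cells held 1 and 11 *Six3* UMIs in *Trim28* Δ/Δ embryos (1.8 and 6.8 CPM), from 1 of 32 and 2 of 76 cells, and none in *Trim28* f/f embryos. Endothelial-like cells held 4 and 9 UMIs (2.0 and 5.7 CPM), from 4 of 131 and 4 of 93 cells, and none in *Trim28* f/f embryos. Free RNA of the whole pool held *Six3* at 7.8 CPM. These levels are far below those of NPC-like cells. The values in cluster 1 and the lower of those in early proximal tubule-like cells (7.8 CPM) were close to or below that of free RNA, whose part in them was not tested.

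The rise of *Six3* was spread over most progenitor-like cells. A *Six3* UMI was found in 13 of 14 and 25 of 28 NPC-like cells of *Trim28* Δ/Δ embryos, 92.9% and 89.3% (66.1 to 99.8 and 71.8 to 97.7), against 0 of 66 and 2 of 196 in *Trim28* f/f embryos. The 0 of 66 allows a share of cells with a UMI of up to 4.55% (3 of 66 cells, the exact interval reaching 5.44%), and it sets no limit on the share that expresses the gene. At 6800 UMIs per cell these shares were 92.9% and 82.1% against 0% and 0.51%. Renal vesicle-like cells gave 73.5% and 67.6% against 0.92% and 1.35% (41.2% and 35.1% against 0% and 0% after thinning), and cluster 6 gave 48.0% and 53.1% against 0% and 2.91%. Endothelial-like cells, at median depths of 12052 to 14686 UMIs against 13044 to 16397 in NPC-like cells, gave 3.05% and 4.30% against 0% and 0%. The exact permutation p was 0.333 for each of the 3 higher classes, the smallest that 2 against 2 embryos allow.

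**Figure D2:**
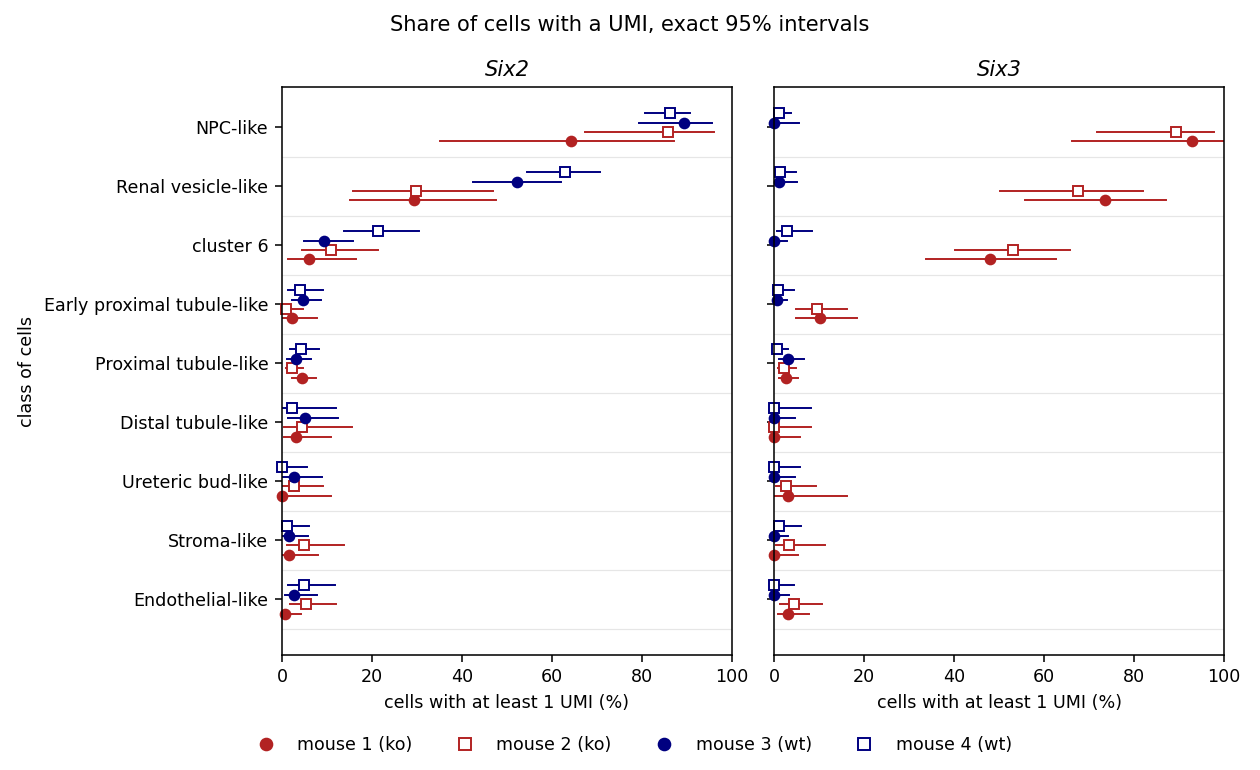
Share of cells (percent, x axis) with at least 1 UMI of *Six2* (left) or *Six3* (right) in 9 classes (rows), with 1 point per embryo (red, *Trim28* Δ/Δ; blue, *Trim28* f/f) and lines for exact 95% binomial intervals. The *Six3* intervals of the 2 genotypes stand apart in NPC-like cells, renal vesicle-like cells and cluster 6, and the *Six2* points of *Trim28* Δ/Δ embryos lie lower in renal vesicle-like cells, at 29.4% and 29.7%.

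In NPC-like cells of the *Trim28* Δ/Δ embryos *Six2* and *Six3* were mostly found in the same cells. Each was found in most of these cells, so that a large overlap follows from that alone. The overlap was not compared with that of independent detection in either class below. Of the 14 and 28 NPC-like cells of *Trim28* Δ/Δ embryos, 8 and 23 held both, 1 and 1 held *Six2* alone, 5 and 2 held *Six3* alone, and 0 and 2 held neither. Of the 34 and 37 renal vesicle-like cells there, 8 and 8 held both, 2 and 3 held *Six2* alone, 17 and 17 held *Six3* alone, and 7 and 9 held neither, so that most cells with a *Six3* UMI in that class had none of *Six2*. The median NPC-like cell there had 5.0 and 4.0 *Six3* UMIs, and the highest had 13 and 8. There were 2.06 and 2.07 *Six3* UMIs per *Six2* UMI in NPC-like cells of the 2 embryos and 4.52 and 4.06 in renal vesicle-like cells. In the NPC-like and renal vesicle-like cells of *Trim28* f/f embryos this number lay between 0 and 0.0051. The counts are of 3′ tags, 1 per molecule, and were not divided by length. The ratio compares counts of 2 genes whose capture may differ, so that it is read between classes and not as a ratio of transcripts.

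*Six3os1* was found at low counts, and with the main assignment of cells only in *Trim28* Δ/Δ embryos. It had 10.4 and 16.3 CPM in NPC-like cells (2 and 7 UMIs), 2.4 and 4.8 CPM in renal vesicle-like cells (2 and 4 UMIs) and 0 and 2.0 CPM in cluster 6 (0 and 2 UMIs). No *Six3os1* UMI was seen in the 3896 assigned cells of *Trim28* f/f embryos, against 6 and 15 in the *Trim28* Δ/Δ embryos. Assignment by the share of the highest tag takes in more cells, 3471 against 2134 in embryo 3, and has no further step against cells with several tags. With it *Six3os1* had 9 and 17 UMIs in *Trim28* Δ/Δ and 8 and 4 in *Trim28* f/f embryos. The part of cells with several tags in these counts was not tested. With a minimum of 2500 UMIs per cell *Six3os1* had 7, 15, 0 and 1 UMIs in embryos 1 to 4. Taken against a limit of 3 UMIs over both *Trim28* f/f embryos, the level under the main assignment was at least 20.6-fold higher in NPC-like cells and at least 9.06-fold higher over all assigned cells, before the counting error of the *Trim28* Δ/Δ UMIs. With that error included, the lower 95% limits of the ratio were 13.5 and 6.74. These bounds do not hold with assignment by tag share, where all assigned cells had 0.25 and 0.41 against 0.12 and 0.088 CPM of *Six3os1*. *Six3os1* passed the filter on low counts in none of the 19 classes, so that it had no test there.

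**Figure D3:**
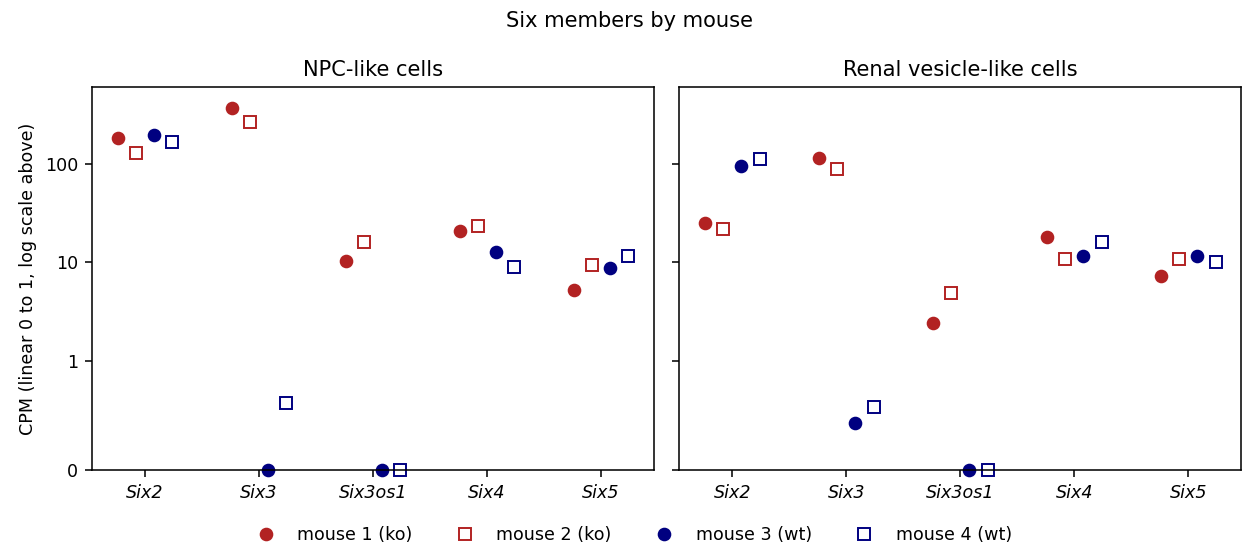
Levels of the 5 members (x axis) in CPM (y axis, linear from 0 to 1 and logarithmic above) in NPC-like cells (left) and renal vesicle-like cells (right), with 1 point per embryo (red, *Trim28* Δ/Δ; blue, *Trim28* f/f). *Six3* and *Six3os1* separate the genotypes in both classes, and *Six2* separates them in renal vesicle-like cells (25.2 and 21.7 against 94.3 and 113.3 CPM). *Six4* separates them in NPC-like cells (20.7 and 23.2 against 12.8 and 8.9 CPM, a change that did not pass the test) and overlaps in renal vesicle-like cells. *Six5* overlaps in both.

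*Six4*, which acts beside its relatives in the early kidney mesenchyme, was more widely spread than *Six2*. Its highest mean levels were in intercalated-like cells (49.5 and 23.4 CPM in *Trim28* Δ/Δ, 12.6 and 35.8 CPM in *Trim28* f/f embryos) and ureteric bud-like cells (36.1 and 27.2 against 14.6 and 26.5 CPM). Distal tubule-like cells followed among the 19 classes with 25.1 and 16.1 against 20.9 and 14.2 CPM. Collecting duct-like cells, left out of the order because embryo 3 had 2 of them, while 166 cells of embryo 3 made up nearly all of cluster 15, an unnamed cluster whose raised markers were also those of the collecting duct, held *Six4* at 18.5, 27.3 and 23.7 CPM in embryos 1, 2 and 4. In cluster 15 *Six4* was at 24.7 CPM in embryo 3. The ranges of the 3 ordered classes overlapped, and the intercalated-like values rest on 3 to 14 UMIs per embryo. NPC-like cells had 20.7 and 23.2 CPM (4 and 10 UMIs) against 12.8 and 8.9 CPM (13 and 29 UMIs). The *Trim28* Δ/Δ embryos were both the higher there, but the log2 change of 1.0 had an SE of 0.52 and an adjusted p of 0.780.

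Endothelial-like cells held *Six4* at 1.5 and 1.9 against 3.1 and 1.5 CPM, and proximal tubule-like cells at 4.1 and 4.2 against 1.4 and 4.0 CPM, both below the 8.9 CPM of free RNA. *Six4* was tested in 12 classes and passed in none, with log2 changes from -0.43 to 1.0. Of all genes tested, 0.386% passed in distal tubule-like, 0.293% in early proximal tubule-like, 0.199% in loop of Henle-like, 0.947% in proximal tubule-like and 0.0203% in ureteric bud-like cells, 0.187% in cluster 1, 1.21% in cluster 5, 0.131% in cluster 6, 0.17% in cluster 11 and none of 5017 genes in intercalated-like cells (438 had an unadjusted p below 0.05 by edgeR, and DESeq2 called 7). Over all assigned cells it had 10.1, 10.7, 11.7 and 11.1 CPM in embryos 1 to 4, a log2 change of -0.17 (SE 0.15, adjusted p = 0.640).

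*Six5*, a broadly expressed member, was highest in stroma-like cells, with 21.2 and 17.6 CPM in *Trim28* Δ/Δ and 16.3 and 17.9 CPM in *Trim28* f/f embryos. Cluster 6 (10.3 and 15.9 against 5.8 and 11.9 CPM) and mural-like cells (6.0 and 16.9 against 9.5 and 11.3 CPM) came next, with the mural-like range overlapping that of stroma-like cells. Renal vesicle-like cells held *Six5* at 7.2, 10.9, 11.6 and 10.1 CPM in embryos 1 to 4, and NPC-like cells at 5.2, 9.3, 8.8 and 11.7 CPM, of which the first is a single UMI. By their means over embryos, 16 of the 19 classes thus lay under the 10.9 CPM of free RNA. *Six5* was tested in 11 classes and passed in none, with log2 changes from -1.12 to 0.56. In 2 of these, stroma-like and endothelial-like cells, none of the 8873 and 10390 genes tested passed (352 and 597 had an unadjusted p below 0.05 by edgeR, and DESeq2 called 0 and 4), so that the lack of a call there says nothing of *Six5*. It did not pass the low-count filter in NPC-like cells. Over all assigned cells the log2 change was -0.24 (SE 0.21, adjusted p = 0.637).

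**Figure D4:**
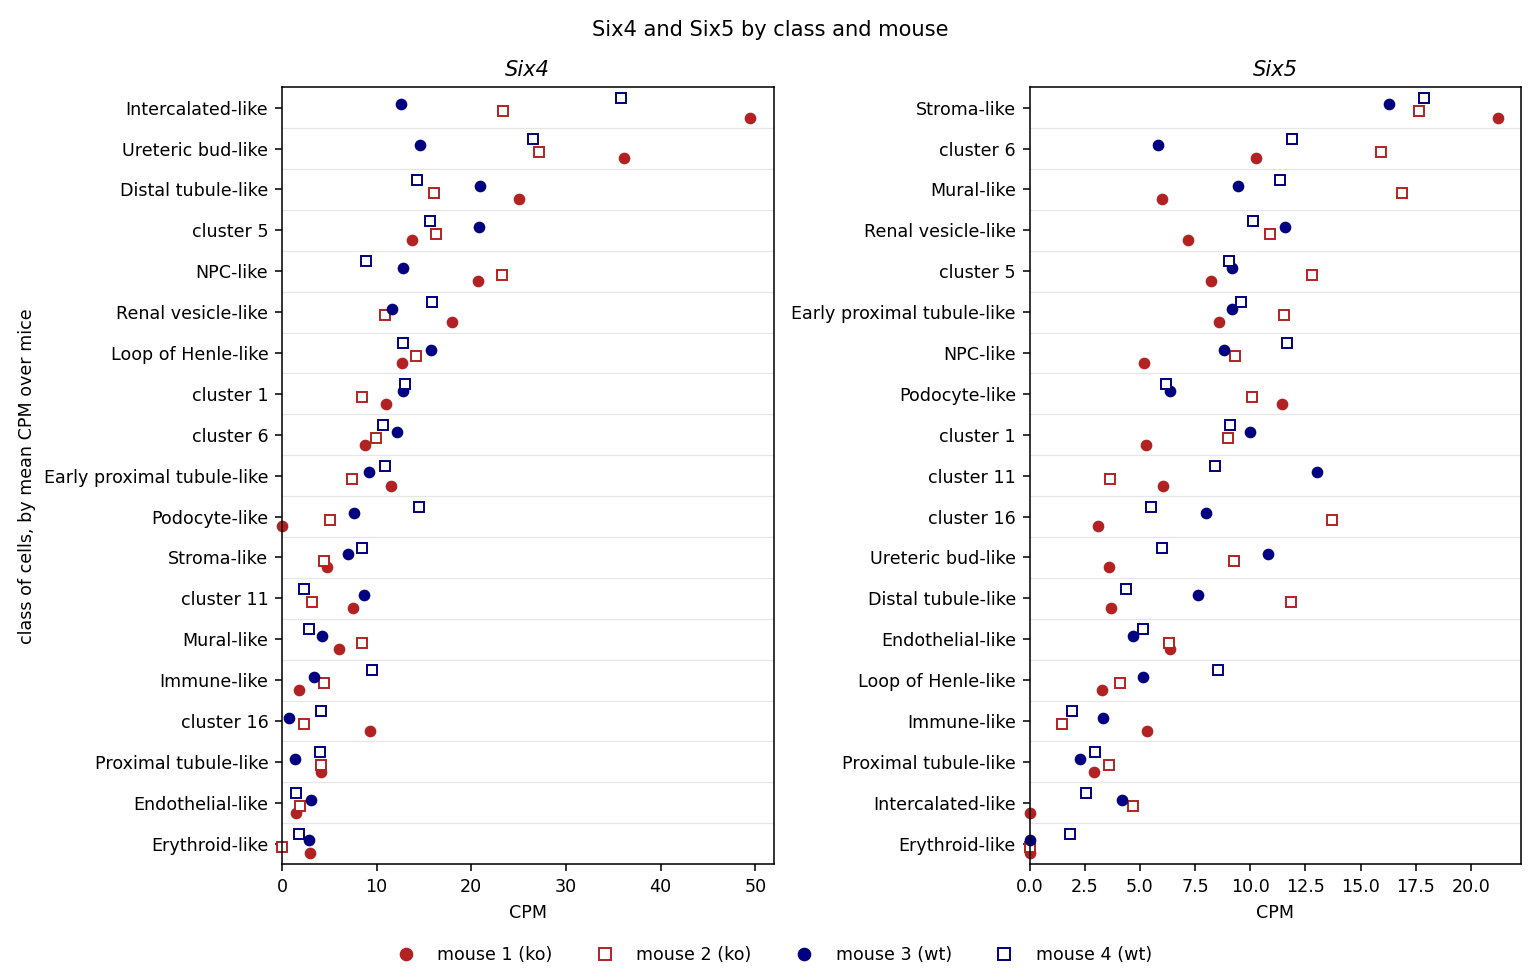
Levels of *Six4* (left) and *Six5* (right) in CPM (x axis) for each of 19 classes (rows, each panel ordered by its mean over embryos), with 1 point per embryo (red, *Trim28* Δ/Δ; blue, *Trim28* f/f). The genotypes intermix in most rows, and *Six5* in stroma-like cells, at 16.3 to 21.2 CPM, leads its panel.

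Set beside one another, 3 of the 5 members could be tested in NPC-like cells, where *Six3* passed, as did 0.305% of all genes tested. In the renal vesicle-like class 4 could be tested, and *Six3* passed as higher and *Six2* as lower, where 1.21% of all genes passed. *Six3* entered both tests through its counts in the *Trim28* Δ/Δ embryos, so that nothing is read from these counts of members. Over all assigned cells *Six3* was the member that passed, with 10.5 and 11.1 against 0.41 and 0.55 CPM, a log2 change of 4.46 (SE 0.25, adjusted p = 0.0109), and 0.164% of all genes passed. The changes of *Six2* and *Six3* thus stood in opposite directions within renal vesicle-like cells.

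**Figure D5:**
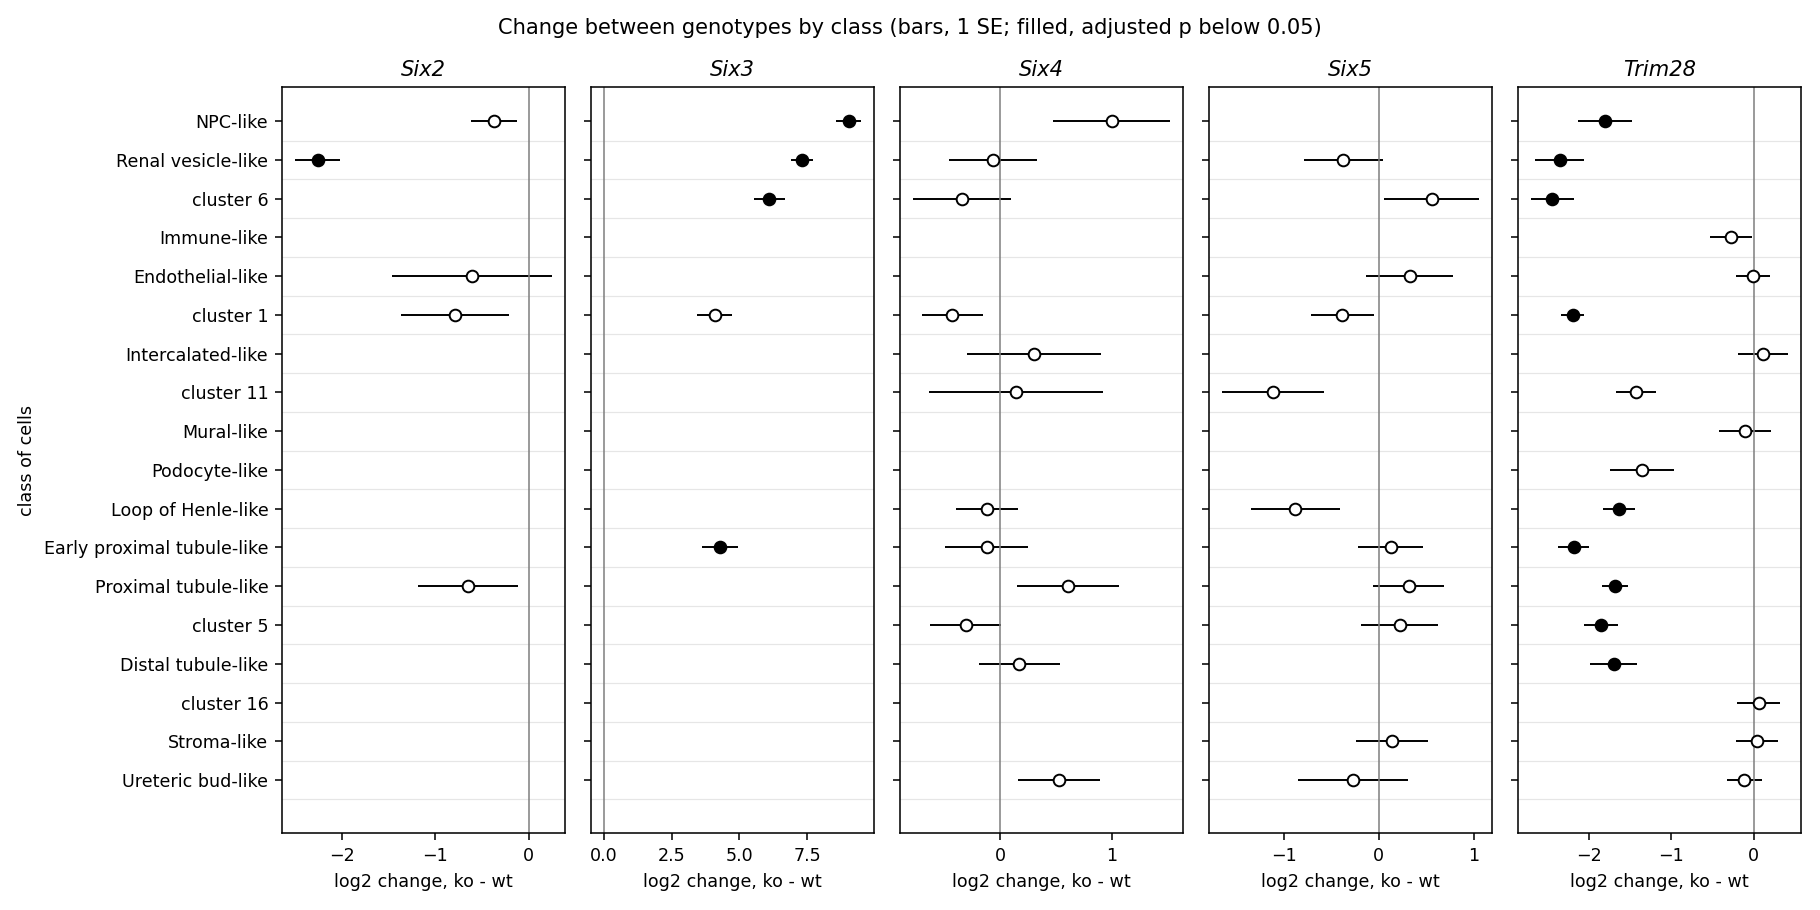
Log2 change (x axis, ko embryos minus wt embryos, a scale of its own in each panel) of *Six2*, *Six3*, *Six4*, *Six5* and *Trim28* in each class where the gene was tested (rows), with bars of 1 SE and filled points for an adjusted p below 0.05. The SE is worked back from the F value of the test and can be smaller than the counting error where 1 genotype is near 0. *Six3* has 4 filled points of 5, in classes that passed the low-count filter through the ko embryos, *Six2* 1 of 5, *Six4* 0 of 12, *Six5* 0 of 11 and *Trim28* 9 of 18.

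The partners of these proteins were looked at as a group of 11 genes of the Eya, Dach and Tle families and *Sobp*. In NPC-like cells 8 of the 11 were tested and none passed, with a median log2 change of 0.05 against -0.01 over all genes. The co-activator *Eya1* had 212.6 and 176.5 CPM against 195.3 and 185.6 CPM there. In renal vesicle-like cells 10 were tested and 1 fell, *Eya1*, with 40.8 and 42.3 against 95.1 and 98.6 CPM (log2 change -1.34, SE 0.21, adjusted p = 0.0232). Of all genes tested, 0.305% passed in the first of these classes and 1.21% in the second. The median of the group was -0.95 there against -0.01 over all genes. *Eya1* is also a marker used to name NPC-like cells.

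Regulators of the cap mesenchyme outside the family numbered 15, of which 14 were tested in each class. In NPC-like cells 1 fell, *Cited1*, a marker of uncommitted progenitors, with 160.7 and 95.2 CPM against 692.0 and 505.0 CPM (log2 change -2.41, adjusted p = 8.157e-04, with 0.119% of genes passing as lower), which did not pass without embryo 2 (-2.04, adjusted p = 0.0988). In renal vesicle-like cells, where *Six2* fell and 0.805% of all genes passed as lower, 4 fell as well: *Cited1* (14.4 and 8.5 against 103.7 and 203.2 CPM), the integrin gene *Itga8* (12.0 and 8.5 against 34.3 and 47.7 CPM), *Meox1* (0 and 1.2 against 11.1 and 18.5 CPM) and *Pax2* (171.5 and 180.0 against 270.8 and 325.2 CPM). The calls of these 4 genes and of *Eya1* did not hold without embryo 1 or without embryo 2 (the lowest adjusted p was then 0.0818, for *Cited1* without embryo 1). With assignment by tag share *Eya1* (-0.79), *Itga8* (-1.08) and *Meox1* (-2.10) did not pass. The renal vesicle-like class then held 80, 125, 320 and 409 cells, so that the class changed along with the assignment. Without the marked doublets *Itga8*, *Meox1* and *Pax2* did not pass, and with DESeq2 *Meox1* did not. *Meox1*, near 0 in the *Trim28* Δ/Δ embryos, passed the low-count filter through the *Trim28* f/f embryos. Its call is given as a description only. The median log2 change of the group was -0.99 in renal vesicle-like cells. *Cited1*, *Itga8* and *Meox1* are naming markers of NPC-like cells, and they moved with *Six2* within the renal vesicle-like class. Their part in the fall of *Six2* was not tested, and fewer cells that express them cannot be told apart there from less RNA per cell.

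Genes of nephron induction numbered 10. In NPC-like cells 8 were tested and 1 fell, *Tmem100*, with 10.4 and 9.3 against 65.8 and 69.5 CPM (log2 change -2.91, adjusted p = 0.0162, with 0.119% of all genes passing as lower, but 0.253 without embryo 1, 0.646 without embryo 2 and 0.0871 with assignment by tag share), and in renal vesicle-like cells 10 were tested and none passed. *Tmem100* passed the low-count filter in NPC-like cells through the *Trim28* f/f embryos, so that its call is given as a description only. *Wnt4*, which drives the passage to epithelium, had 228.1 and 197.4 against 167.9 and 163.8 CPM in NPC-like cells (edgeR adjusted p = 0.961). Of 10 eye and forebrain genes that work with *Six3* there, none was high enough to be tested in either class. *Pax6*, *Otx2*, *Rax*, *Vax1* and *Sox2* were at 0 UMIs in the NPC-like cells of all 4 embryos, and *Hesx1*, *Lhx2* and *Shh* had 3, 2 and 4 UMIs over these cells. In the same cells *Six3* had 188 UMIs in the *Trim28* Δ/Δ embryos.

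The other genes near the cluster did not pass. Of the 6 genes other than the members that start within 500 kb of the start of *Six2*, 2 were tested in NPC-like cells, *Srbd1* (20.7 and 18.6 against 26.5 and 27.0 CPM, log2 change -0.58, adjusted p = 0.946) and the non-coding *CJ186046Rik* (20.7 and 23.2 against 16.7 and 7.7 CPM, log2 change 0.91, adjusted p = 0.868). *Srbd1* starts 457 kb and *CJ186046Rik* 5.36 kb from *Six2*. In renal vesicle-like cells 2 were tested and none passed. *Gm28528*, a non-coding gene annotated antisense within *Six3*, had 2 UMIs in the NPC-like cells of embryo 2 and 0 in the others. Of 19 neighbours of *Six4*, 2 were tested in NPC-like cells and none passed, and of 52 neighbours of *Six5*, 11 were tested and none passed. Of all genes tested, 0.305% passed in NPC-like and 1.21% in renal vesicle-like cells, so that nothing is read from these counts of neighbours.

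Likeness to other genes was measured as Pearson's r of log2(CPM + 1) over the means of 19 classes, among 12622 genes that reached 10 CPM in at least 1 class. The classes share 1 pool and differ in depth, and r is given as a description. The means were taken over all 4 embryos, so that for *Six3* and the other members they mix both genotypes, and those of *Six3* come almost wholly from the *Trim28* Δ/Δ embryos. *Eya1* (r = 0.95), *Ripply2* (0.93) and *Nell1* (0.93) were most like *Six2*, and *Nell1* (0.94), *Eya1* (0.92) and *Spag11b* (0.91) were most like *Six3*. All 4 of these genes were highest in NPC-like cells. *Patz1* (0.91), *Zfp687* (0.90) and *Gnaz* (0.89) were most like *Six4*, with their highest levels in ureteric bud-like or intercalated-like cells. *Tmem39a* (0.93), *Pwwp3b* (0.92) and *Mettl16* (0.92) were most like *Six5*, of which the first 2 were highest in stroma-like cells and *Mettl16* in cluster 1.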

How the data were processed

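Embryonic kidney cells were tagged per embryo with lipid-linked oligonucleotides, pooled and sequenced with 10x Genomics 3′ chemistry. The authors deposited raw UMI counts per barcode from Cell Ranger (6.0.0 in the submitters' notes, another version in the file header) for 3921239 barcodes, 32285 genes and 12 tags. Names were given for 4 tags, which are the 4 embryos used. A further 4 tags carried cells of the same pool, which therefore also fed its free RNA, but had no name, and those cells were not used. Barcodes with at least 6890 UMIs, 200 detected genes and no more than 10% of their UMIs from mitochondrial genes (19273) were assigned to embryos with HTODemux (quantile 0.99), normalized with SCTransform 0.4.2 and clustered with Seurat 5.3.0 (3000 variable genes without the members, 30 components, resolution 0.8). Cells with several tags (6684) and cells called negative for all tags (1436) were left out. Scrublet in scanpy 1.11.5 marked 6.47% of the 6867 cells assigned to the 4 embryos as doublets, and these were kept.

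A cluster was named when its marker score reached 0.5, at least 3 markers were raised 1.5-fold, and at least 1 stood among its 10 leading genes. *Six2* was no marker, and the naming thresholds were chosen with the clusters in view. UMI counts were summed per class and embryo and tested with edgeR 4.0.16 (TMM, quasi-likelihood, filterByExpr), with Benjamini-Hochberg adjustment over all genes tested and a threshold of 0.05, in classes of at least 10 cells in each embryo. Before these tests, the edgeR fit between genotypes alone was run on simulated counts with means taken from these classes. Its outcome is not reported here, and the other steps were not simulated. Genotypes come from the tag names. The p-values set a change against the spread between 2 embryos per genotype. Both edgeR and DESeq2 estimate that spread with information shared across genes. A p-value therefore does not rest on the spread of the tested gene alone. An SE given with a log2 change is the size of that change divided by the square root of its F value. It was not estimated on its own, and for genes near 0 in 1 genotype it can be smaller than the counting error. When 1 embryo is left out, its genotype has 1 embryo and the spread comes from the other genotype alone. The members and lists were chosen with earlier results of these data known. The rule for other named genes took list genes that passed in NPC-like cells, tested coding neighbours of *Six2*, and the 3 genes most like each member with at least 50 UMIs. *Eya1*, *Itga8*, *Meox1*, *Pax2*, *Wnt4*, *CJ186046Rik*, *Gm28528* and the eye and forebrain genes were named outside it, after their values were seen. The values of some genes of that list are not reported here. Alternatives were DESeq2 1.42.0, no low-count filter, resolutions 0.4 and 1.2, members kept among the variable genes, tag assignment by a share of 60%, a minimum of 2500 UMIs, marked doublets removed, thinning, at least 2 UMIs, and leaving out each embryo.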

Additional observations from a re-analysis of the deposited data

Results flagged for a closer look

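The change of *Six2* between genotypes differed between classes. Its log2 change in NPC-like cells lay 1.93 above that in renal vesicle-like cells (SE 0.32, edgeR adjusted p = 8.147e-04), with changes of -0.37 and -2.26 in the separate fits. A different mix of cells within either class cannot be told apart from a different level per cell.

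The change of *Six3* in NPC-like cells exceeded that in proximal tubule-like cells by 7.81 on the log2 scale (SE 1.23, edgeR adjusted p = 2.44e-07). In proximal tubule-like cells *Six3* had 1.6 and 1.3 CPM in *Trim28* Δ/Δ embryos and 1.4 and 0.20 CPM in *Trim28* f/f embryos, a pooled ratio of 1.95 (0.792 to 5.46). It exceeded the change in loop of Henle-like cells by 7.67 (SE 1.79, edgeR adjusted p = 0.0287), where *Six3* had 0.41 and 2.7 CPM against 0.57 and 0.39 CPM. *Six3* failed the low-count filter in each of these 2 tubule classes alone and entered the joint fits through its high counts in the ko NPC-like cells, so that these 2 p-values describe the contrast and give no independent support. These were the 3 that passed among 63 tests of members over 18 classes, each a comparison with NPC-like cells. The share of all genes that passed the same tests is not reported here, so that nothing is read from this count. *Six3* differences of similar or larger size did not pass by edgeR against other classes. Among them were stroma-like (8.26, SE 2.90, adjusted p = 0.765), immune-like (7.78, SE 2.45, adjusted p = 0.749) and podocyte-like cells (7.33, SE 1.57, adjusted p = 0.0568). Dixon's rule on outlying samples was not applied, since each genotype had 2 embryos.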

How the results depend on the processing

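No paired analysis was possible because the labels number only the bulk samples and the tags give each embryo a number of its own. *Six3* passed the threshold in NPC-like cells in 13 of 13 settings (log2 change 6.11 to 10.31), in renal vesicle-like cells in 13 of 13 (5.41 to 7.52), in cluster 6 in 8 of 8 and over all assigned cells in 13 of 13 (2.78 to 4.67), with the lowest value of these 3 ranges under assignment by tag share. Within the classes *Six3* enters the filtered fits through its counts in the ko embryos, so that the number of settings passed there is no measure of stability. *Six3* in early proximal tubule-like cells passed in 10 of 13. *Six2* in NPC-like cells passed in 0 of 13 (-0.62 to -0.14). *Six2* in renal vesicle-like cells passed in 11 of 13 (-2.39 to -1.65, the weakest with assignment by tag share, where that class also held more cells). Leaving out 1 embryo gave -2.39 to -2.11 for it, with the call lost without embryo 1 or 2. It gave 1.64 to 2.14 for the difference of *Six2* between the 2 classes, lost without the same embryos, and -2.92 to -1.62 for *Six2* over all assigned cells, which then passed without embryo 3 or 4. *Six2* over all assigned cells also passed with DESeq2 (-2.42) and with no filter (-2.41).

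The number of genes called moved most. In NPC-like cells 23 passed, against 180 with no filter, 81 at resolution 0.4, 62 at a minimum of 2500 UMIs, and 1 (without embryo 2) to 422 (without embryo 4) when 1 embryo was left out. In renal vesicle-like cells 120 passed, against 66 with DESeq2, 406 with no filter, and 5 (without embryo 1) to 654 (without embryo 4). Over all assigned cells 27 passed, against 670 with DESeq2, 719 with no filter, and 9 (without embryo 1) to 4376 (without embryo 4). The cause was not tested.

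The difference between genotypes in the share of NPC-like cells with a *Six3* UMI, 90.6 percentage points, was 87.2 after thinning and 83.9 with at least 2 UMIs. In renal vesicle-like cells it was 69.4, and 38.2 after thinning, 45.3 with at least 2 UMIs and 61.8 with assignment by tag share. The share of NPC-like cells with *Six2* differed by -12.8 points and by 6.96 with assignment by tag share. Without a call in any setting, *Six4* in renal vesicle-like cells moved from -0.06 to 0.0029 at resolution 1.2, 0.0168 at a minimum of 2500 UMIs, and -0.48 to 0.25 without 1 embryo. Assignment by tag share left 9 NPC-like cells in embryo 1, so the fit there used a minimum of 5 cells, chosen after seeing the data, in which *Srbd1* was at 0.26. Counts of 14 and 28 NPC-like cells limit what can be seen of the low members *Six4*, *Six5* and *Six3os1* there.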
